A study of Mus musculus with 6 samples.

Results

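The 26S proteasome is built from subunits encoded by the Psma, Psmb, Psmc and Psmd genes, and 36 genes carrying these symbols were followed in single-cell libraries of mouse mammary tumours. They are all the symbols that consist of Psma, Psmb, Psmc or Psmd and a number, less the 3 immunoproteasome genes Psmb8, Psmb9 and Psmb10, out of 27933 distinct symbols. By role they comprised 8 Psma genes of the outer, alpha rings and 8 Psmb genes of the inner, beta rings (together the core particle, 16 genes), 6 Psmc ATPase genes and 11 non-ATPase Psmd genes (together the regulatory particle, 17 genes), and 3 Psmd genes, Psmd5, Psmd9 and Psmd10, whose products are chaperones of regulatory particle assembly. The question put to the data was how much of the cells' messenger RNA these genes took up in each cell class and library, and whether this differed between treated and control tumours.

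The proteasome degrades proteins tagged with ubiquitin. The regulatory particle caps the barrel-shaped core, binds ubiquitin chains, removes them, unfolds the protein with its ring of ATPases and feeds it through the gate of the alpha ring to the proteolytic sites of the beta ring. Cells exposed to interferon exchange the constitutive catalytic subunits for inducible ones, giving the immunoproteasome, which favours peptides that fit class I histocompatibility molecules. Cells that lose proteasome capacity, or are stressed by misfolded protein, can raise their subunit genes together through the transcription factor encoded by Nfe2l1, which the protease Ddi2 releases.

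The tumours came from 4T1 cells, an established mouse mammary carcinoma line. FVIO-MHT stands in the labels for treatment with FVIOs, which the title calls ferrimagnetic vortex nanorings, and mild magnetic hyperthermia: 0.1 mg of FVIOs per cm3 of tumour was injected, a 365 kHz alternating field was applied for 10 min, and tissue was taken after 24 hours. The other group was given PBS. FVIO-MHT libraries are called treated and PBS libraries control from here on, with the replicate numbers of the labels. Each group had 3 Drop-seq libraries, from whole tumours dissociated with enzymes and treated to lyse red cells. The labels give the same protocol text for both groups, so whether PBS tumours were also placed in the field is not stated, and they do not say whether libraries of a group came from separate mice. The spread between libraries may therefore be technical in part.

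Levels are given in CPM, the molecules (UMIs) of a gene per 1000000 UMIs of all genes in the same sum of barcodes. Drop-seq counts transcript ends, so CPM does not scale with transcript length and levels of different genes can be set side by side. A level is a share of RNA; in whole-tumour sums, fewer cells of a type and less RNA per cell cannot be told apart. Of the deposited barcodes, 6730 had at least 200 detected genes and were kept, 332, 1049 and 2325 in treated replicates 1 to 3 and 1080, 1462 and 482 in control replicates 1 to 3. They held 6038386 UMIs, of which 46966 belonged to the 36 genes, and the median barcode held 400 to 834 UMIs depending on the library.

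Several libraries stood apart before any result on proteasome genes. Treated replicate 1 held no tumour epithelial-like barcode, and 265 of its 332 barcodes were neutrophil-like. In treated replicate 3, 1146 of 2325 barcodes fell in a cluster that was left unnamed (leading genes Hbb-bs, S100a6 and Krt7, with 5 tumour epithelial markers), and 410 of its 452 tumour epithelial-like barcodes fell in a single cluster led by mitotic genes. Control replicates 2 and 3 shared 33 kept barcodes against at most 1 for any other pair of libraries, and results without the 66 barcodes concerned were computed as well. Classes are called by the markers they carry, for example Epcam and keratins for tumour epithelial-like, C1q genes and Csf1r for macrophage/monocyte-like, and S100a8 and Csf3r for neutrophil-like barcodes.

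Over all kept barcodes Psma7, an alpha ring gene, was the most abundant of the 36, with 188, 975 and 1369 CPM in treated replicates 1 to 3 and 974, 2004 and 1457 CPM in control replicates 1 to 3 (mean 1161 ± 610, SD, n = 6 libraries). The lowest value was that of treated replicate 1 and the highest that of control replicate 2, and the groups overlapped. Psmb1, a non-catalytic beta ring gene, led its ring at 440 ± 216 CPM. Psmc1 was the highest ATPase at 306 ± 137 CPM, and Psmd7, a scaffold of the lid of the regulatory particle that pairs with the deubiquitinase Psmd14, was the highest non-ATPase gene at 260 ± 133 CPM. The chaperones were rarer: Psmd9 reached 40.1 ± 22.7 CPM, Psmd10 36.1 ± 8.1 and Psmd5 26.4 ± 14.5.

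The 3 proteolytic sites of the constitutive core had similar mean levels over all kept barcodes. Psmb5, the chymotrypsin-like subunit (GRCm38 chromosome 14, 54614119 to 54618022), stood at 171 ± 101 CPM, Psmb6, the caspase-like subunit (chromosome 11, 70525367 to 70527858), at 184 ± 101 CPM, and Psmb7, the trypsin-like subunit (chromosome 2, 38588036 to 38644087), at 186 ± 83 CPM (SD, n = 6 libraries each). The SDs are spreads between the same libraries and do not measure how the genes differed within a library. Within a class they could differ more. Over treated replicate 2 and control replicate 1, tumour epithelial-like sums averaged 191 CPM of Psmb5, 120 CPM of Psmb6 and 227 CPM of Psmb7. The 2 tissue-restricted genes were close to undetected: Psma8, an alpha subunit of the testis, gave 2 UMIs, both in treated replicate 3, and Psmb11, the thymus cortex subunit, gave 0 of 6038386 UMIs, which allows a level of up to 0.497 CPM.

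Per library the 36 genes together took 1700 CPM (treated replicate 1), 6299 and 9668 CPM in the other FVIO-MHT libraries, and 6497, 8029 and 7336 CPM in control replicates 1 to 3. Both the lowest and the highest library were FVIO-MHT, so the treated range enclosed the control range. The barcodes with fewer than 200 detected genes, which entered no class, kept that order of extremes, at 1434 CPM in treated replicate 1 and 8401 CPM in treated replicate 3.

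The levels also varied with cell class. Tumour epithelial-like barcodes gave 8259 and 10753 CPM for the summed 36 genes in treated replicates 2 and 3, and 6659, 8416 and 8387 CPM in control replicates 1 to 3 (mean 8495 ± 1461, n = 5 libraries). Macrophage/monocyte-like barcodes gave 3648, 7075 and 8188 CPM in the FVIO-MHT libraries and 6289.5, 6125 and 7449 CPM in the PBS libraries (6462 ± 1574, n = 6). Their ranges overlapped between libraries, but in each of the 5 libraries that held both classes the tumour epithelial-like sum was the higher. In control replicate 1 the 2 sums differed by less than their 95% Poisson intervals (6449 to 6874 against 5662 to 6968 CPM).

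No other named class reached the tumour epithelial-like mean of 8495 CPM in any library, but the unnamed cluster did. Fibroblast-like sums ran from 3827 to 6522 CPM over 4 libraries, T and NK-like sums from 5505 to 6475 CPM over 4, mammary luminal-like sums from 5522 to 7137 CPM over 3, and skin keratinocyte-like sums from 6294 to 8158 CPM over 3. Endothelial-like barcodes gave 7059.8 CPM in treated replicate 3 and 5118 CPM in control replicate 2, and the B/plasma-like class, with enough barcodes in control replicate 1 only, gave 6700.1 CPM. In control replicate 1 the mammary luminal-like sum (7137 CPM) and the B/plasma-like sum were above the tumour epithelial-like one (6659 CPM). The unnamed cluster gave 8599.9 and 9687 CPM in treated replicates 2 and 3 and 7504 and 8611 CPM in control replicates 1 and 2 (mean 8600.4), above the tumour epithelial-like sum in 3 of these 4 libraries, although 3 of its sums rest on 78 to 193 UMIs of the members. Among the named classes, core and regulatory genes shared this order at its ends. Core genes averaged 5063 ± 884 CPM in tumour epithelial-like and 1127 ± 514 CPM in neutrophil-like sums. Regulatory particle genes averaged 3296 ± 657 and 942 ± 411 CPM in these classes.

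**Figure D1:**
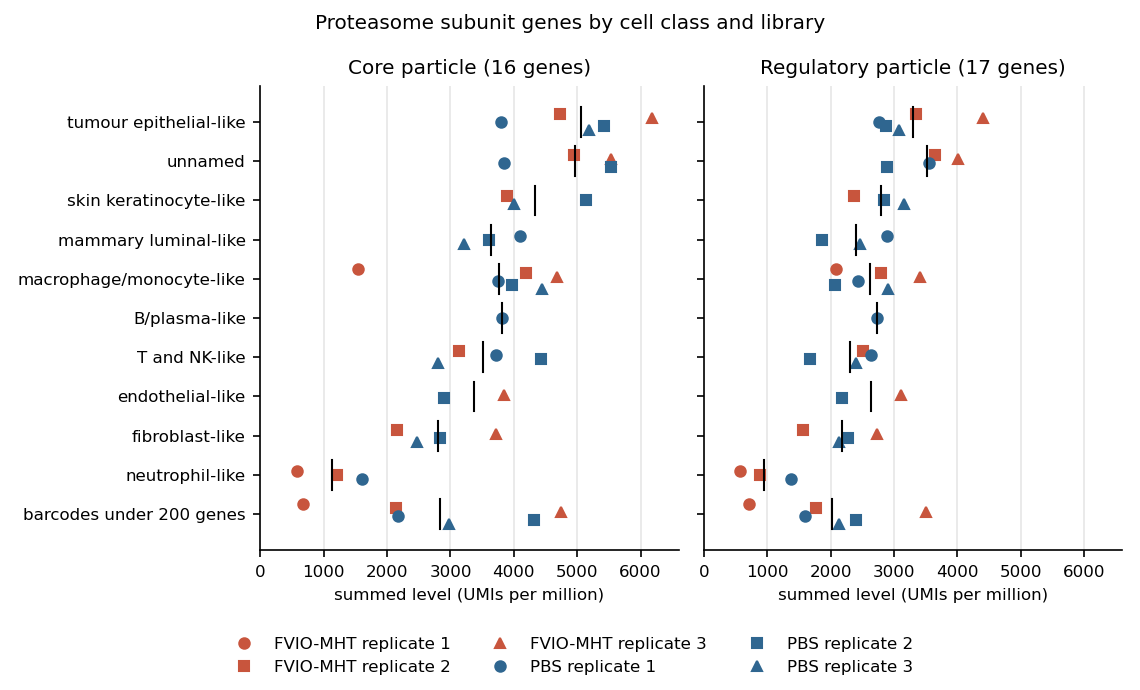
Summed level of core particle genes (left, 16 genes) and regulatory particle genes (right, 17 genes) in CPM, by cell class (rows); each point is 1 library with at least 20 barcodes of the class, and the vertical line is the mean over libraries. The neutrophil-like mean lies lowest on both sides, with core means of 1127 against 5063 CPM in tumour epithelial-like sums. Single points of other rows overlap with the neutrophil-like ones.

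Neutrophil-like barcodes carried the least proteasome messenger RNA of any class in each of the 3 libraries that held at least 20 of them. In treated replicate 1 the 36 genes summed to 1169.8 CPM (exact 95% Poisson interval 999.6 to 1360.7) in neutrophil-like and 3648 CPM (3039 to 4343) in macrophage/monocyte-like barcodes. In treated replicate 2 the values were 2122 CPM (1908 to 2352) and 7075 CPM (6640.2 to 7530.2), and in control replicate 1 they were 3049 CPM (2432 to 3775) and 6289.5 CPM (5662 to 6968). The macrophage/monocyte-like level was thus 3.1, 3.3 and 2.1 times the neutrophil-like level, and the intervals, which cover counting error only, did not meet in any library. In treated replicate 1, 60 of the 64 macrophage/monocyte-like barcodes came from a cluster that also met the neutrophil markers S100a8, S100a9 and Csf3r.

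The lower level was spread over most genes. Among members with at least 10 UMIs over both sums, 12 of 12 were lower in neutrophil-like barcodes in treated replicate 1, 30 of 30 in treated replicate 2 and 18 of 19 in control replicate 1. Of all genes with that many UMIs, 49.9%, 63.6% and 60.0% were lower in those libraries. Among members with at least 1 UMI the counts were 28 of 32, 34 of 34 and 27 of 34, against 56.6%, 62.1% and 62.2% of all genes. Psmc3, an ATPase of the base, averaged 20.3 CPM in neutrophil-like and 157 CPM in macrophage/monocyte-like sums, resting on 5 and 44 UMIs. Psmd1, the large scaffold of the base, averaged 32.4 and 189 CPM, the lid subunit gene Psmd13 52.9 and 294 CPM, and Psma7 258 and 791 CPM. Psma3, Psmd12 and Psmd11 had the smallest ratios among members with at least 10 UMIs, at 1.1, 1.3 and 1.4. The comparison was not tested across libraries; depth was 542, 430 and 424 UMIs per neutrophil-like barcode and 540, 626 and 582 UMIs per macrophage/monocyte-like barcode in those libraries, and its part in the difference was not tested.

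Tumour epithelial-like barcodes formed 4 clusters, and the cluster led by the mitotic genes Cenpf, Hmmr and Prc1 held the most proteasome messenger RNA in every library where it had 20 barcodes. Its summed level was 10207 CPM (95% Poisson interval 9624 to 10817) in treated replicate 2, 10787 CPM (10559 to 11019) in treated replicate 3, 8856 CPM (8092 to 9672) in control replicate 1 and 10357 CPM (9929 to 10799) in control replicate 2. The cluster led by Cxcl5 and Pthlh gave 7593 CPM in treated replicate 2, 6552 CPM in control replicate 1 and 8769 CPM in control replicate 2. The cluster led by H19 and Car9 gave 5532 to 8736 CPM over 5 libraries, and that led by the heat shock gene Dnajb1 gave 8036 and 8398 CPM in control replicates 2 and 3. The share of the mitotic cluster differed between libraries: it made up 410 of 452 tumour epithelial-like barcodes in treated replicate 3 and 49 of 203 in treated replicate 2, against 30 of 435 and 82 of 1041 in control replicates 1 and 2.

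Within the proteasome the balance of core to regulatory particle messages differed between libraries. Over all kept barcodes the ratio of the summed core to the summed regulatory genes was 0.89, 1.42 and 1.38 in treated replicates 1 to 3, and 1.38, 1.88 and 1.54 in control replicates 1 to 3. In tumour epithelial-like barcodes it was 1.41 and 1.40 in the FVIO-MHT libraries and 1.37, 1.89 and 1.68 in the PBS libraries, and in macrophage/monocyte-like barcodes it ran from 0.74 in treated replicate 1 to 1.92 in control replicate 2. Control replicate 2 had the highest ratio in the whole-library sums and in both classes.

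The spread was narrower without Psma7. This gene made up 25.0% of the 36 genes' UMIs in control replicate 2 and 19.9% in control replicate 3, but 11.0% to 15.5% in the other 4 libraries. With Psma7 left out, the whole-library ratio was 0.68 in treated replicate 1 and 1.01 to 1.15 in the other 5 libraries. Psma7 lies on chromosome 2, 180036374 to 180042433 of GRCm38.

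A test of tumour epithelial-like against macrophage/monocyte-like sums within the 5 libraries that held both asked which single members differ between these classes. Of the 32 members that passed the filter on low counts, 10 passed an adjusted p of 0.05 (edgeR quasi-likelihood test with library as a block, Benjamini-Hochberg over 4167 genes), 5 higher and 5 lower in tumour epithelial-like barcodes. Over all genes tested 46.0% passed, 23.4% higher and 22.6% lower, so the members' share lay below the background. Their median log2 fold change was 0.26 against 0.12 over all genes, and 22 of 32 lay above 0 against 55.1% of all genes. An unadjusted p under 0.05 was reached by the same number, 10 of 32, against 53.2% of all genes. In 11 members tumour epithelial-like barcodes were higher in every library (30.4% of all genes) and in 2 lower in every library (20.8%), 13 of 32 in all against 51.2%. Psmd5 and Psmd10 fell under the filter, as did Psma8 and Psmb11.

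Among the members higher in tumour epithelial-like barcodes, Psma6, an alpha ring gene, had 367 and 304 CPM in treated replicates 2 and 3 and 366, 203 and 216.5 CPM in the PBS libraries, against 143, 208, 103, 134 and 131 CPM in macrophage/monocyte-like barcodes of the same libraries (log2 fold change 0.82 ± 0.23, SE; adjusted p = 0.0091). Psmd1 had 320.4, 479.7, 213.5, 321.9 and 331.1 CPM against 158, 245, 206, 134 and 203 CPM (0.74 ± 0.22; adjusted p = 0.010). Both were higher in 5 of 5 libraries, although the ranges of the 2 classes over libraries met for each gene. Psma3 (0.84 ± 0.31), Psmd7 (0.59 ± 0.20) and Psmd12 (0.55 ± 0.21) were also higher in 5 of 5 libraries, with adjusted p of 0.038, 0.024 and 0.043. Psma3 encodes an alpha subunit, and Psmd7 and Psmd12 encode lid subunits.

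Lid genes also stood among the lower members. Psmd8 had 87.2, 86.9, 101.5, 42.8 and 72.2 CPM in tumour epithelial-like barcodes (treated replicates 2 and 3, then control replicates 1 to 3) against 129, 159, 206, 83.1 and 87.1 CPM in macrophage/monocyte-like ones (log2 fold change -0.89 ± 0.24; adjusted p = 0.0064). Psmd13 had 187, 165.5, 119, 61.7 and 80.6 CPM against 294, 231, 241, 70.3 and 189 CPM (-0.79 ± 0.23; adjusted p = 0.0091). Each was lower in 5 of 5 libraries. The ATPase gene Psmc4 (-0.75 ± 0.27; adjusted p = 0.035), the alpha ring gene Psma1 (-0.64 ± 0.24; adjusted p = 0.039) and the catalytic gene Psmb6 (-0.67 ± 0.25; adjusted p = 0.041) were lower with 1 of 5 libraries going the other way. Genes of the same subcomplex thus lay on both sides: among 11 non-ATPase genes 3 were higher and 2 lower, and among 7 alpha ring genes tested 2 were higher and 1 lower.

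**Figure D2:**
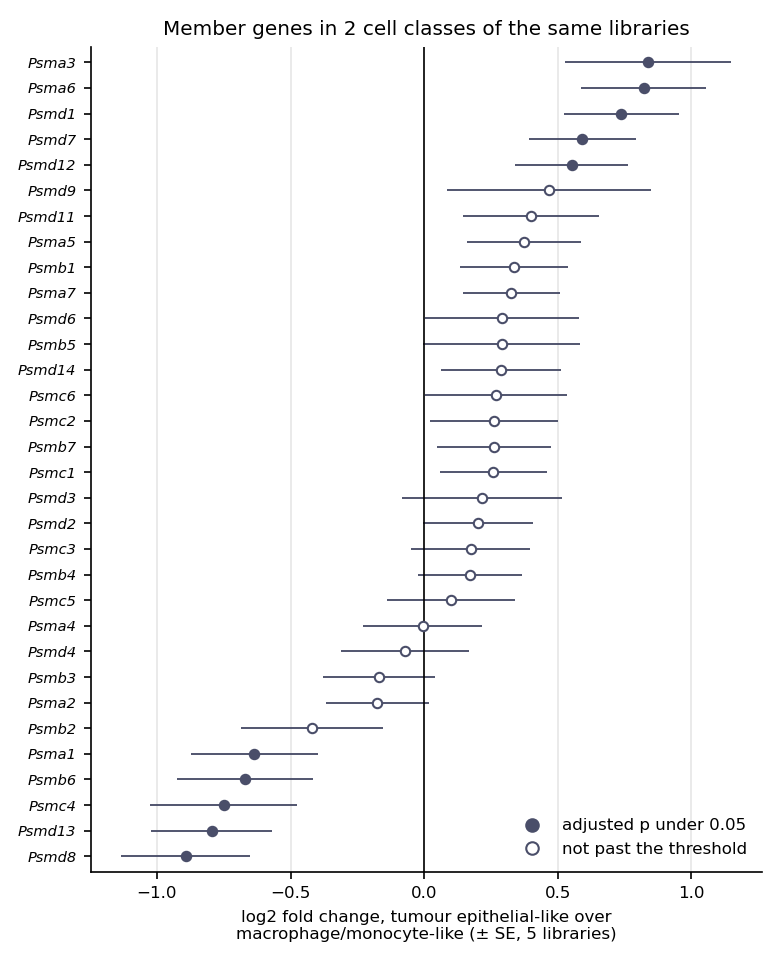
Log2 fold change (horizontal axis) of each of the 32 tested members, tumour epithelial-like over macrophage/monocyte-like in the same 5 libraries, with its standard error as a bar; filled points passed an adjusted p of 0.05. Psma3 and Psma6 lie at the top (0.84 and 0.82), and Psmd13 and Psmd8 at the bottom (-0.79 and -0.89).

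These calls depended on the libraries and barcodes used. With the 3 PBS libraries alone 2 members passed, and with DESeq2 in place of edgeR 5 passed. Leaving out treated replicate 2 left 3 members past the threshold, as did leaving out control replicate 2, and leaving out control replicate 3 left 5. A minimum of 400 detected genes per barcode also left 5, and a fit without the library block 3. The share of all genes called is not set beside each of these counts. A loss particular to the members can therefore not be read from them. Psma6 stayed past the threshold in 15 of 16 alternatives, Psmd1, Psmd8 and Psmd13 in 13 of 16, and Psmd12 in 3 of 16, and none of the 10 called members changed sign in any of the 16. The macrophage/monocyte-like class carried other cells' messages unevenly: the 8 tumour epithelial markers summed to 0, 151 and 1228 CPM in it in treated replicates 1 to 3 and to 155, 742 and 421 CPM in control replicates 1 to 3, while the 12 macrophage markers summed to 21 to 136 CPM in the tumour epithelial-like class. Tumour epithelial-like barcodes were also deeper, with 1314 to 1922 UMIs each on average against 500.4 to 767 UMIs. The part of these in the differences was not tested. The difference between the classes in log2(CPM + 10) lay without overlap between the 2 treated and 3 control libraries for 6 of 32 members, against 19.5% of all genes, and on opposite sides of 0 for Psmd3 alone, against 2.45% of all genes; neither was tested.

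Of the lists of genes that act around the proteasome, most gave no call between the same classes, where 46.0% of all genes passed. None of the 5 immunoproteasome and PA28 activator genes passed, nor did any of the 5 shuttle and segregase genes tested, the 3 receptors and other regulatory particle genes outside the 36, the 2 other activators and inhibitors or the 2 chaperones of core assembly. Of the 3 genes of its transcriptional control, Nfe2l1 was higher in tumour epithelial-like barcodes (log2 fold change 1.11; adjusted p = 0.00079), and Ddi2 (-0.92; adjusted p = 0.016) and the antioxidant response gene Nfe2l2 (-1.99; adjusted p = 5.5e-06) were lower. Of 5 heat shock genes tested, Hsp90aa1 (1.08; adjusted p = 0.0015) and Dnajb1 (0.92; adjusted p = 0.0041) were higher and Hspa1a (-4.93; adjusted p = 2.0e-07) lower. Of the 5 ubiquitin genes, 2 were called higher in tumour epithelial-like barcodes and 0 lower (median log2 fold change 0.46).

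Because Nfe2l1 and Nfe2l2 products bind antioxidant response elements, the promoters of the members were searched for the core letters TGACNNNGC on both strands. RefSeq promoter sequences (GRCm38.p6, up to 250 bases before the gene start) matched 29 of the 36 members. The motif was in 5 of these 29 (17.2%), Psmb5, Psmb6, Psmc6, Psmd9 and Psmd12, against 10.2% of 27018 promoters in the table. The letters CCAAT were in 12 of 29 (41.4%) against 34.5% of all promoters, and the interferon-related letters TTCNNNGAA in 0 of 29 against 7.18%. Matches of this kind describe letters, not binding. The 3 shown are the promoters of the catalytic genes Psmb5 and Psmb6 and of Psmd12: between the classes Psmb6 was called lower, Psmd12 higher and Psmb5 neither. Capitals mark the motif, which in Psmd12 lies on the opposite strand. Positions are chr14:54618023-54618245 on the minus strand for Psmb5, chr11:70525107-70525356 on the plus strand for Psmb6 and chr11:107479278-107479483 on the plus strand for Psmd12. The motif starts 47, 9 and 247 bases before the RefSeq start, and the bases that GENCODE places inside the gene (27 for Psmb5, 44 for Psmd12) are not printed. All 3 are printed 5′ to 3′ along the gene's strand.
Psmb5: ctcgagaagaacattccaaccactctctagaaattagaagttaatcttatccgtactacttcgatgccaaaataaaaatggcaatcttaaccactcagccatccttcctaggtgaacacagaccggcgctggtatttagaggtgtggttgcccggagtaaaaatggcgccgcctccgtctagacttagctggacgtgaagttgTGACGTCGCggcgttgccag
Psmb6: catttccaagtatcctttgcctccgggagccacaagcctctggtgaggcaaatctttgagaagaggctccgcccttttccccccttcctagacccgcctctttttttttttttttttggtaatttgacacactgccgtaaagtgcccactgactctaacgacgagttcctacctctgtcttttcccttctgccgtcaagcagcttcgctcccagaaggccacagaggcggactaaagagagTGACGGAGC
Psmd12: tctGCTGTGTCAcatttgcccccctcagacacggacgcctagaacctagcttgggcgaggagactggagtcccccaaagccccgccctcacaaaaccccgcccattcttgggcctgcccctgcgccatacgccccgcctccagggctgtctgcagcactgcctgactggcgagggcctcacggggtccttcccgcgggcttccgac

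Treatment was compared first over whole tumours, 3 libraries against 3. None of the 34 members that passed the filter passed an adjusted p of 0.05, and none had an unadjusted p under 0.05. The background was equally empty, with 0.0% of 8603 genes past the adjusted threshold and 5.24% at an unadjusted p under 0.05 (edgeR quasi-likelihood test; DESeq2 called 185 genes, none of them a member). The members' median log2 fold change was -0.10, against -0.04 over all genes, and 13 of 34 lay above 0 against 47.0% of all genes.

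Single members varied around that. Psmd13 had 127, 176.5 and 188 CPM in treated replicates 1 to 3 and 137, 61.9 and 104 CPM in control replicates 1 to 3 (log2 fold change 0.91 ± 0.45, SE; adjusted p = 0.878), with overlapping groups. Psmd14, the deubiquitinase of the lid, had 27.6, 115 and 127 CPM against 149.9, 169.6 and 180.5 CPM (-0.77 ± 0.47; adjusted p = 0.892). Its groups did not overlap, which was also so for the alpha ring gene Psma5 (22.1, 182 and 144 against 195, 237 and 227 CPM) and for Psmb7 (33.1, 180.9 and 191 against 193, 276 and 242 CPM). These 3 of 34 were the lower ones without overlap, near the 9.46% of all genes, and no member was higher without overlap, against 3.17% of all genes. Psmb2, a beta ring gene, was at 44.1, 113 and 121 against 53.4, 51.1 and 87.1 CPM, and the groups overlapped.

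Treated replicates 1 and 3 pulled the whole-tumour values in opposite directions. Without replicate 1 the members' median log2 fold change was 0.24, and without replicate 3 it was -0.61, with no member past the threshold in either case. The first is the library dominated by neutrophil-like barcodes, and the second the library dominated by the mitotic and unnamed clusters.

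In macrophage/monocyte-like barcodes 28 members passed the filter and none passed the adjusted threshold, against 0.0% of 2066 genes (90 genes, 4.36%, had an unadjusted p under 0.05; DESeq2 called 2 genes and no member). Psmd11, a lid subunit that also touches the core, was the only member with an unadjusted p under 0.05. It had 174, 279.5 and 231 CPM in treated replicates 1 to 3 and 51.6, 95.9 and 159.7 CPM in the PBS libraries (log2 fold change 1.23 ± 0.47; adjusted p = 0.990). Its groups did not overlap, nor did those of Psmb2 (116, 150.5 and 113 against 68.7, 95.9 and 102 CPM). Higher without overlap were thus 2 members of 28, against 3.58% of all genes, and lower without overlap was Psmd14 (0, 115 and 122 against 155, 141 and 131 CPM), against 6.15%. Together these were 3 of 28 members without overlap, against 9.73% of all genes.

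The members' median in this class was 0.12 against 0.01 over all genes, and 16 of 28 lay above 0 against 50.7% of all genes. By role, the medians were 0.54 for the 6 ATPases, 0.18 for 9 non-ATPase genes, 0.05 for 7 beta ring genes and -0.28 for 6 alpha ring genes. Psmc1 had 261, 358 and 471 CPM after FVIO-MHT and 172, 249 and 261 CPM after PBS (0.76 ± 0.41; adjusted p = 0.990), and Psmc3, another ATPase, had 116, 236.5 and 231 against 120, 128 and 145 CPM (0.69 ± 0.42; adjusted p = 0.990). Different clusters held most of the class in different libraries. In treated replicate 1, 60 of 64 barcodes fell in the cluster that also met neutrophil markers, and the 8 neutrophil markers summed to 5559 CPM, against 3011 and 544 CPM in treated replicates 2 and 3 and 300.5 to 2354 CPM in the controls. In the controls 78 of 100, 181 of 204 and 81 of 93 barcodes, and in treated replicate 2 193 of 223, fell in a cluster led by Mmp12 and Ctss. The part of the cluster makeup in the values was not tested; without treated replicate 1 the members' median was 0.17. In treated replicate 3, 396 of 441 barcodes of the class fell in a cluster that also met 4 tumour epithelial markers; without that cluster 16 members passed the filter and the median was -0.08, and without treated replicate 3 altogether it was -0.23.

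In tumour epithelial-like barcodes most members lay above 0 after treatment, without passing the test. With 2 FVIO-MHT against 3 PBS libraries, 28 of 34 members tested lay above 0 (all genes, 51.0%), and their median log2 fold change was 0.34 against 0.01 over all 7550 genes. No member passed the adjusted threshold (0.0% of all genes did), 5 had an unadjusted p under 0.05 against 9.03% of all genes, and DESeq2 called 25 genes. In 14 of 34 members both treated libraries lay above all 3 controls, against 17.7% of all genes, and in none did they lie below, against 9.28%, so 14 of 34 were without overlap against 27.0% of all genes. These shares describe the 5 libraries and were not tested as a set.

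The beta ring gene Psmb2 (chromosome 4, 126677630 to 126709714) had 141 and 129.8 CPM in treated replicates 2 and 3 against 45.5, 45.4 and 89.1 CPM in control replicates 1 to 3 (log2 fold change 1.16 ± 0.37; adjusted p = 0.446). Psmd3, a lid subunit gene (chromosome 11, 98682554 to 98695979), had 113 and 117 CPM against 64.7, 57.8 and 50.9 CPM (0.88 ± 0.30; adjusted p = 0.479). Psmd13 (chromosome 7, 140881968 to 140898643) had 187 and 165.5 CPM against 119, 61.7 and 80.6 CPM (0.93 ± 0.34; adjusted p = 0.493). In these 3 genes each treated library lay above each control. The same held for Psmb3 (0.72 ± 0.31) and Psmd11 (0.69 ± 0.30), both with adjusted p = 0.550, where the treated libraries had 333 and 470.2 CPM, and 254 and 350.0 CPM.

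By role the counts differed, and the alpha ring count lay near the share of all genes. Each role held at most 11 genes, and the difference between roles was not tested. Both treated libraries were highest in 17.7% of all genes. The same held for 5 of 6 ATPases, 5 of 11 non-ATPase, 3 of 7 beta ring and 1 of 7 alpha ring genes tested. The median log2 fold changes were 0.35, 0.38, 0.57 and 0.02 in that order, and 0.50 for the 3 chaperones. Psma5 (-0.47 ± 0.31) and Psma7 (-0.30 ± 0.37) lay lowest, with Psma7 at 1369 and 1532 CPM against 1060.3, 2160.1 and 1787 CPM. Summed regulatory particle genes stood at 3353 and 4402 CPM after FVIO-MHT against 2769.6, 2871.5 and 3086 CPM after PBS, without overlap, whereas summed core genes stood at 4729 and 6183 CPM against 3791, 5419 and 5191 CPM, with overlap.

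**Figure D3:**
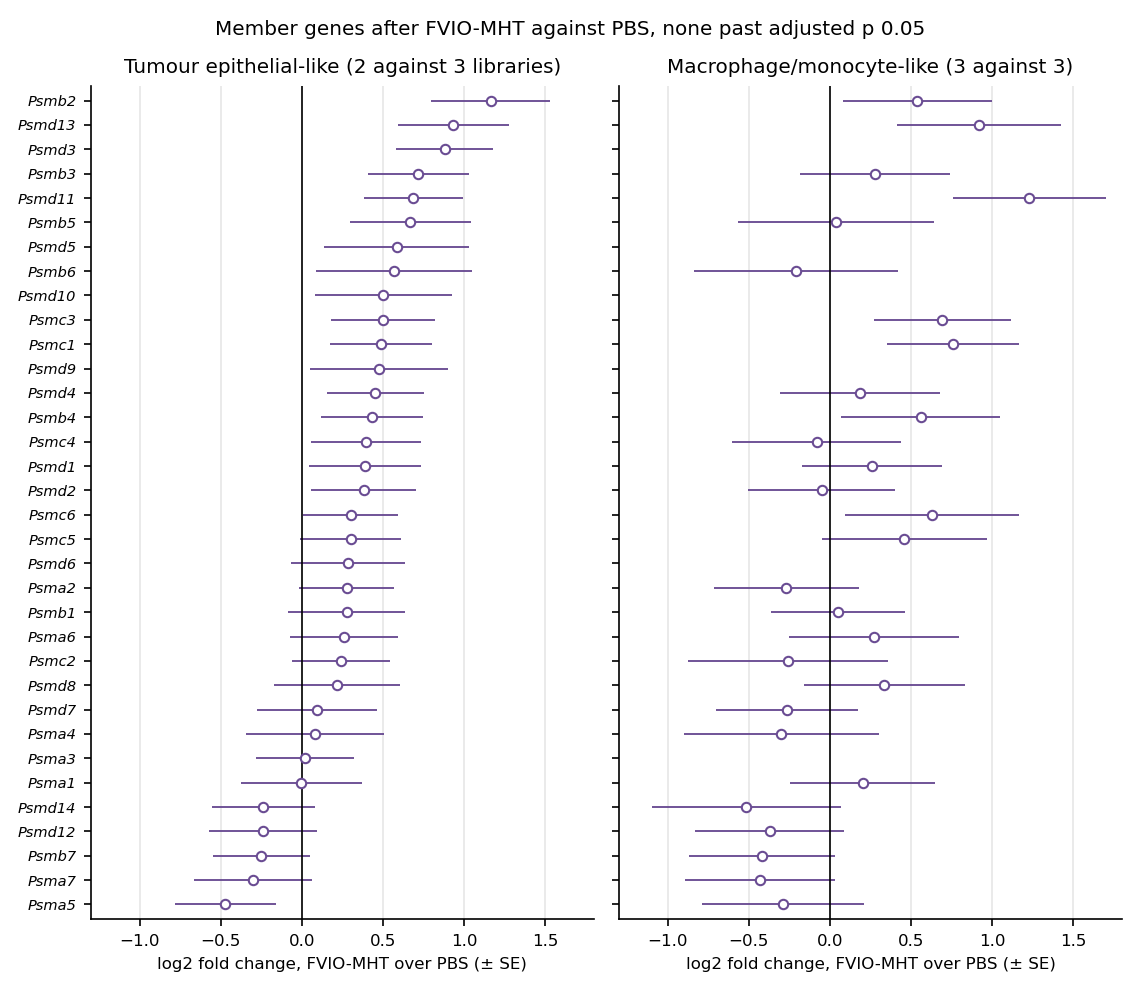
Log2 fold change (horizontal axis, FVIO-MHT over PBS) of each member with its standard error as a bar, in tumour epithelial-like (left, 2 against 3 libraries) and macrophage/monocyte-like barcodes (right, 3 against 3), with gaps where a member did not pass the filter. On the left 28 of 34 points lie right of 0 and on the right 16 of 28; none passed an adjusted p of 0.05.

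The size of the median rested on treated replicate 3: it was 0.08 without that library and 0.53 without treated replicate 2. The mitotic cluster, with the highest summed level in each library where it had 20 barcodes, made up most of replicate 3's tumour epithelial-like barcodes, and its part in the difference was not tested. Within that cluster alone the summed level was 10207 and 10787 CPM in the treated libraries and 8856 and 10357 CPM in control replicates 1 and 2, so the 4 values were closer together than over the whole class. Neutrophil markers summed to 825 and 173 CPM in the treated class sums and to 285, 47 and 403 CPM in the controls.

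Lists of partner genes in the tumour epithelial-like class gave no call either. All 6 inducible heat shock genes tested lay below 0 after FVIO-MHT without passing, among them Dnajb1 at a mean of 79.3 against 608 CPM and Hsph1 at 78.2 against 340.2 CPM (adjusted p = 0.353 for each). The 6 genes summed to 4549.8 and 4074 CPM in treated replicates 2 and 3 and to 5436, 13696 and 10756 CPM in control replicates 1 to 3, so control replicate 1 lay near the treated libraries and the other 2 controls well above. Control replicates 2 and 3, which shared 33 barcodes, also held 357 and 46 of the 425 barcodes of the cluster led by Dnajb1, and the part of this cluster was not tested. The direction was not particular to this class. All heat shock genes tested also lay below 0 over whole tumours (6 genes, median -2.55) and in macrophage/monocyte-like barcodes (4 genes, median -3.77), with 0 past the threshold in each. The 5 immunoproteasome and PA28 genes also lay below 0 (median -0.52), but this rested on treated replicate 3: their sum was 2904 and 923 CPM in treated replicates 2 and 3 against 1909, 2865 and 3005 CPM in control replicates 1 to 3. Without treated replicate 3 the median was -0.09 and 2 of the 5 lay above 0. Of the 5 chaperones of core assembly 4 lay above 0 (median 0.33).

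**Figure D4:**
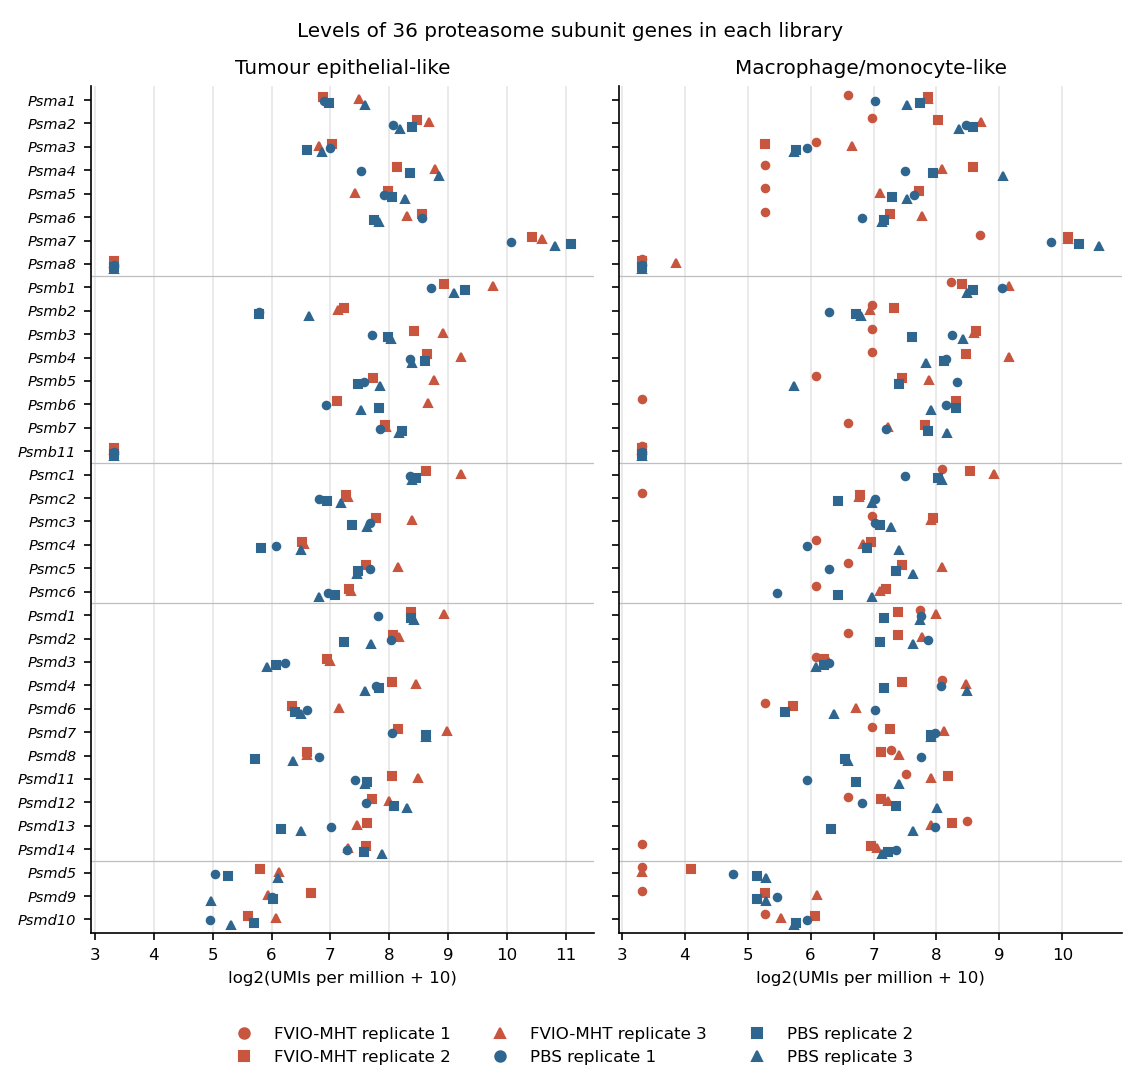
Level of each of the 36 genes as log2(CPM + 10) in tumour epithelial-like (left, 5 libraries) and macrophage/monocyte-like barcodes (right, 6 libraries), 1 point per library, grouped from top to bottom into alpha ring, beta ring, ATPase, non-ATPase and chaperone genes. Psma7 lies farthest right in both classes, Psmb11 at 0 UMIs marks the left edge, and treated replicate 1 lies lowest for several genes on the right.

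The constitutive catalytic members can also be read against the inducible subunits that replace them, Psmb8 (for Psmb5; chromosome 17, 34197721 to 34201454), Psmb9 (for Psmb6; chromosome 17, 34181987 to 34187764) and Psmb10 (for Psmb7). In tumour epithelial-like barcodes the inducible genes made up 78.2% (exact binomial 95% interval 75.5 to 80.7) of the UMIs of these 6 genes in treated replicate 2 and 29.1% (26.6 to 31.7) in treated replicate 3. In control replicates 1 to 3 the share was 68.9% (65.8 to 71.8), 73.5% (72.1 to 74.9) and 75.9% (72.5 to 79.1). Treated replicate 3 stood apart and the other 4 libraries lay within 10 percentage points of each other; the mean over libraries was 65.1%, and 74.1% without treated replicate 3.

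Psmb9 was the most extreme of the pairs. Its share with Psmb6 was 78.7% in treated replicate 2 and 71.6%, 68.3% and 72.3% in the PBS libraries, but 3.24% (1.63 to 5.71; 11 of 340 UMIs) in treated replicate 3. Both sides of the pair differed there, with Psmb9 at 13.1 CPM against 282 to 474 CPM in the other 4 libraries, and Psmb6 at 392 CPM against 112 to 216 CPM. Psmb5, too, was highest in that library, at 423 CPM against 167 to 221 CPM, while Psmb7 was at 237 CPM against 220.5 to 288 CPM.

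The inducible share in treated replicate 3 was also low in the unnamed cluster and in some classes. It was not the lowest in macrophage/monocyte-like barcodes. The mitotic cluster and the H19 and Car9 cluster are parts of the tumour epithelial-like class. The mitotic cluster held 410 of the 452 barcodes of that class in treated replicate 3, so its value there largely repeats that of the class. In the mitotic cluster the inducible share of the 6 genes was 28.9% in treated replicate 3, against 77.8% in treated replicate 2 and 65.1% and 72.3% in control replicates 1 and 2, and in the H19 and Car9 cluster it was 31.8% (22 UMIs) against 74.5% to 77.5%. The H19 and Car9 range for the other libraries covers 4 of them. In the unnamed cluster it was 38.4% against 68.4% to 72.9% in 3 libraries. Fibroblast-like barcodes of that library gave 34.2%, against 51.4% to 61.6% in 3 libraries, and endothelial-like barcodes 36.6%, against 41.7% on 24 UMIs in control replicate 2.

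In macrophage/monocyte-like barcodes the inducible share of the 6 genes was 68.8% (16 UMIs), 70.7% and 50% in treated replicates 1 to 3 and 49.4%, 61.4% and 69.1% in control replicates 1 to 3. Treated replicate 3 was thus just above control replicate 1, which was the lowest. Of the pairs in this class, only that of Psmb9 with Psmb6 set treated replicate 3 apart, at 6.94% (2.3 to 15.5) against 38.5% to 59.0% in the 4 other libraries with at least 20 UMIs of the pair. The groups overlapped in the share of the 6 genes, and its mean of 61.6% was close to the 65.1% of tumour epithelial-like barcodes, with overlapping ranges. Barcodes under 200 detected genes, which entered no class, gave 40.4%, 82.5% and 41.0% in treated replicates 1 to 3 and 59.2%, 70.0% and 75.1% in control replicates 1 to 3, so that treated replicates 1 and 3 were the lowest. Neutrophil-like barcodes gave 27.8% on 18 UMIs in treated replicate 1, 85.3% in treated replicate 2 and 71.4% in control replicate 1.

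**Figure D5:**
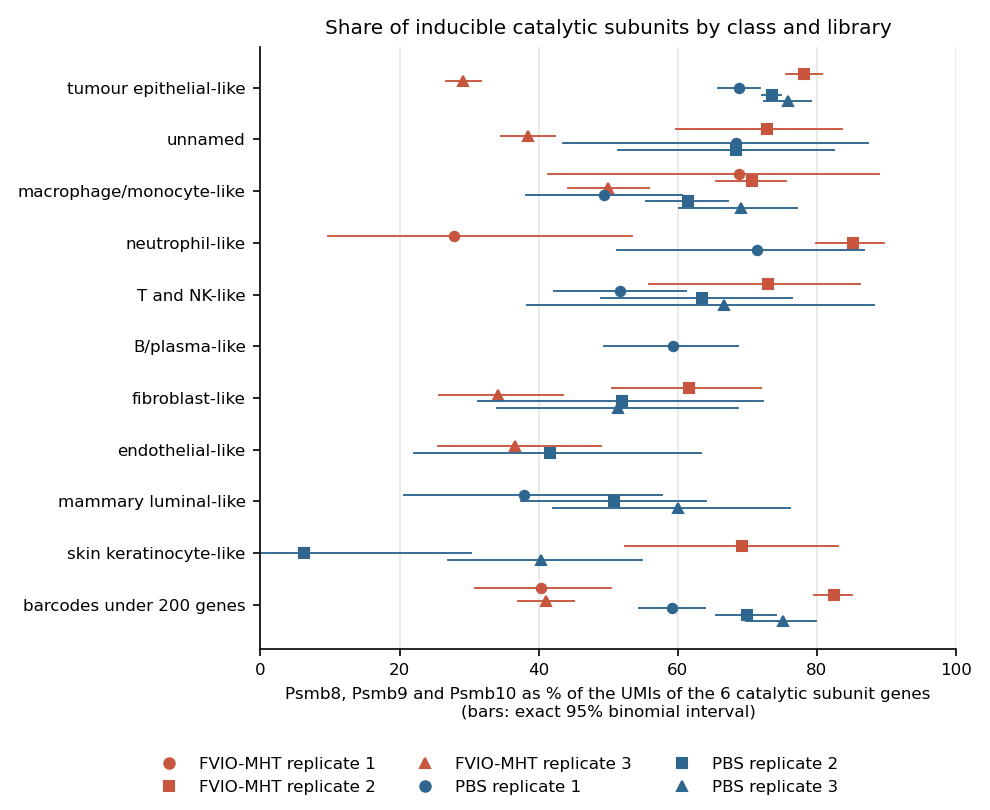
Psmb8, Psmb9 and Psmb10 as a percentage of the UMIs of the 6 catalytic subunit genes (horizontal axis), by cell class (rows); each point is 1 library with at least 20 barcodes of the class, and bars are exact 95% binomial intervals, which cover counting error only. In tumour epithelial-like barcodes treated replicate 3 lies at 29.1% and the other 4 libraries at 68.9% to 78.2%.

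Across the 35 sums of a class in a library, the genes whose level followed the summed members most closely were Rpl14 (Pearson r = 0.927), Rpl13 (0.920), Ptma (0.914), Rpl34 (0.901) and Rpsa (0.90), out of 1943 genes with a mean of at least 100 CPM, on a log2(CPM + 10) scale. Of these, 4 belong to the ribosome and Ptma encodes prothymosin alpha. The sums share libraries and depth, and the members' level had r = 0.226 with the mean UMIs per barcode, so these values describe the 35 sums only. Among the members, Psma7 (r = 0.855), Psmd1 (0.834) and Psmc5 (0.817) followed the rest most closely. Psmd10 (-0.03), Psmd8 (0.07), Psma8 (0.11, on 2 UMIs), Psmd4 (0.18), Psmd11 (0.18) and Psmb2 (0.20) followed them least. Psmb11 had 0 UMIs and no value. Over the 35 sums Psmd10, Psmd8 and Psmb2 had 232, 480 and 497 UMIs, against 8491 for Psma7. Psmd4 and Psmd11 had 1397 and 1292 UMIs, and Psmc5 had 1130. The part of counting error in these values was not tested.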

How the data were processed

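UMI counts per gene and barcode were deposited by the authors for 6 Drop-seq libraries. STAR 2.7.2b and the mm10 build are named in the submitters' processing notes. The treatment of reads that matched several places, as they can for Psma7 and other genes with copies, is not stated in the labels. The files list 27998 rows, of which 65 repeated another row exactly and were dropped. Library totals ran from 678337 to 2207534 UMIs. Barcodes with at least 200 detected genes were clustered in scanpy 1.11.5 (2000 variable genes without the members and related pathway genes, 30 components, 15 neighbours, Leiden resolution 1). Of 17 clusters, 16 were named from marker lists, needing at least 3 markers; this rule was settled after the clusters' leading genes were seen, so class shares may differ from the study's. Scrublet called 39 barcodes (0.579%), which were kept. Counts were summed per class and library with at least 20 barcodes and tested with edgeR 4.0.16 (R 4.3.3; TMM, filterByExpr, quasi-likelihood test, Benjamini-Hochberg over all genes tested, threshold 0.05). Intervals are exact, from scipy 1.17.1. Gene positions are from GENCODE on GRCm38.

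Named genes are the constitutive catalytic subunits, the highest member of each role, and the 5 members with the lowest p in each comparison; Psmc4, Psma1 and Psma3 were added because they passed a test. The members and lists were chosen with earlier results of these data known. On simulated counts, 4-fold changes were found for 0% of 100 genes over whole tumours, 50% in tumour epithelial-like and 48% in macrophage/monocyte-like barcodes, and 2-fold changes for 0%, 2% and 6%. Between the 2 classes the shares were 85% and 39%. The simulated sums shared a common mean per gene, scaled by depth, apart from the 100 genes changed at each fold. In the reported test between the classes 46.0% of all genes passed, so these shares do not give the power of that test. Alternatives were other normalization, DESeq2 1.42.0, filters, barcode minimums, clusterings and leaving out libraries.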

Additional observations from a re-analysis of the deposited data

Results flagged for a closer look

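Psmd3, a lid subunit gene, differed between the treatment groups in how its level compared between 2 cell classes. The tumour epithelial-like minus macrophage/monocyte-like level on a log2(CPM + 10) scale was 0.72 and 0.70 in FVIO-MHT replicates 2 and 3, and -0.08, -0.13 and -0.16 in PBS replicates 1 to 3. Both treated libraries lay on one side of 0 and all controls on the other, and the group means of 0.71 and -0.12 differed by 0.83. The difference was not tested. Treated replicate 1 held no tumour epithelial-like barcodes, so 2 FVIO-MHT libraries stand against 3 PBS libraries. Psmd3 was the 1 member of 32 with the groups on opposite sides of 0, against 2.45% of 4167 genes. The groups did not overlap in 6 of 32 members (Psmd3, Psmd2, Psmd7, Psmb2, Psmb4 and Psma2), against 19.5% of all genes. Both counts lay near the shares of all genes, so they do not set the members apart. The macrophage/monocyte-like values rest on 4 to 15 UMIs of Psmd3 per library.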

How the results depend on the processing

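No named member reversed its direction past a threshold under any alternative. A result with no call in either setting could not count as reversed. Of the results for single genes, 1243 kept their side of the threshold and 62 lost it. Only the 10 members called between the 2 classes had a call to lose, so all 62 losses were theirs. Most of the 1243 were results without a call that stayed without one. Over whole tumours no gene passed in the reported test, 185 passed with DESeq2 and 2 without a filter on low counts. In macrophage/monocyte-like barcodes the count went from 0 to 2 with DESeq2 and 25 without the filter, and leaving out a library gave 0 to 2, the 2 without PBS replicate 1. In tumour epithelial-like barcodes it went from 0 to 25 with DESeq2, 139 without the filter and 0 to 219 when a library was left out (219 without FVIO-MHT replicate 2, 4 without PBS replicate 1), and the members' median, 0.34 in the reported test, ran from 0.084 (without FVIO-MHT replicate 3) to 0.53. No member passed in these settings.

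With the replicate number as a block 28 genes passed in tumour epithelial-like barcodes, none a member, and the block changed no other call on treatment. Same-numbered libraries deviated together with correlations of 0.16, 0.02 and -0.08 over whole tumours, so the numbers were not taken to pair them.

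Between the 2 classes the members called went from 10 to 5 with DESeq2, 6 without the filter, 3 without the library block, 5 at a minimum of 400 genes and 2 in the PBS libraries alone, and ranged from 3 to 8 when a library was left out (3 without FVIO-MHT replicate 2 or PBS replicate 2, 5 without PBS replicate 3). All genes called went from 1915 of 4167 tested to 3605 without the filter and 1263 at 400 genes. The number of genes tested changes with such settings, so these counts cannot be read as a rise or fall in the share called. For DESeq2, the fit without the library block and the PBS libraries alone, the counts over all genes are not given here. The causes were not tested. Without a library the number of genes called ran from 1590 to 2032. In macrophage/monocyte-like sums 8 of 36 members fell under the filter on low counts. Among them were Psma8 and Psmb11, which fell under it in every comparison. Of all 27933 genes, 2066 passed the filter in this class.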
